A study of Mus musculus with 8 samples.

Results

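The 10 genes described here encode the NF-κB transcription factor subunits (Nfkb1, Nfkb2, Rel, Rela, Relb), the IκB proteins that hold them back (Nfkbia, Nfkbib, Nfkbie), the related nuclear protein Bcl3 and the ubiquitin-editing enzyme Tnfaip3 (A20). They were chosen by name, with earlier results of these data known, and each was read from the array probes that carry its symbol. Of the 10 genes, 9 had a probe and 8 had a probe above background in at least 1 treatment group, out of 7947 genes tested in all. Nfkb1, which encodes the p105 precursor of p50, was carried by no named probe and was not analysed here. The probe of Bcl3 was above background on none of the 8 arrays, with deposited intensities between -2.16 and 9.57 and a lowest detection p-value of 0.0514, so Bcl3 was not tested. Nfkbie had 2 probes, and the brighter one stood for the gene.

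NF-κB factors are dimers that wait in the cytoplasm, bound by IκB proteins or by the uncut precursors of their own family. When an upstream kinase complex marks the IκB for destruction, the dimer enters the nucleus and binds κB sites. Several of its target genes encode the pathway's own subunits and brakes, so that Nfkbia, Nfkbie, Tnfaip3, Nfkb2, Rel and Relb are widely used as readouts of pathway activity, and in B lymphocytes Rel and Relb serve in activation and survival.

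The cells were λ820, a mouse lymphoma line driven by Myc. The labels do not say what drives Myc, and all groups came from this line. The control group received the solvent DMSO, diluted 1000-fold. The other groups received 10 µM RVX2135, an inhibitor of the BET bromodomain proteins that read acetylated histones, or 10 µM VE-821, an inhibitor of the replication-stress kinase ATR, or both drugs together at those doses. All were kept for 24 h, and each of the 4 groups had 2 arrays. Whether the replicates are separate cultures is not said in the labels, so the spread behind every p-value may be technical.

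RefSeq promoter windows of the assembly GRCm38.p6, running from 250 bases before to 50 bases after an annotated start, were at hand for 8 of the 10 genes, and not for Nfkb1 and Relb. The κB consensus, a 10-base motif, was searched on both strands, and overlapping matches were taken as 1 stretch. It was found in at least 1 window of 6 of these 8 genes, against 5.14% of the 27025 genes and 4.51% of the 32851 windows of the table. For the measured genes with a match, 1 window each that holds it is shown 5′ to 3′ on the gene's own strand, with the matched stretches in capitals. The windows without a match are not shown.
Nfkb2: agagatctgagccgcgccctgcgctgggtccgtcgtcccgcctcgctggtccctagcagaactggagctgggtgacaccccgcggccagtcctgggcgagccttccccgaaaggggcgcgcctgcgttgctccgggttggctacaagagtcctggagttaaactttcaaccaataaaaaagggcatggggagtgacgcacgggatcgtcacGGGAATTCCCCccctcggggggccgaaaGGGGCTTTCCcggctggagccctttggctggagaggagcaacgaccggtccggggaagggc
Rel: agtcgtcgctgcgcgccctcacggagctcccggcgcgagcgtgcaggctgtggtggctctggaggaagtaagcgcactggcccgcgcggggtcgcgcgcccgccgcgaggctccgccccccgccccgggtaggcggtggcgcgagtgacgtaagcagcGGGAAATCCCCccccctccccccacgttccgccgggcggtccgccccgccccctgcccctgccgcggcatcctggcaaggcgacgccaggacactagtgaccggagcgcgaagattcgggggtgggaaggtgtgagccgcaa
Nfkbia: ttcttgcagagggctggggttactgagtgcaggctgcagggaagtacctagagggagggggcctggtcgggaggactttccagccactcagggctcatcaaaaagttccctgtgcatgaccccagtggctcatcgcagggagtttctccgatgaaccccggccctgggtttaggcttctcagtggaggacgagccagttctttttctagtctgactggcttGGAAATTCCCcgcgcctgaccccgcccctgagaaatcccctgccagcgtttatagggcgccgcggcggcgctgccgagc
Nfkbie: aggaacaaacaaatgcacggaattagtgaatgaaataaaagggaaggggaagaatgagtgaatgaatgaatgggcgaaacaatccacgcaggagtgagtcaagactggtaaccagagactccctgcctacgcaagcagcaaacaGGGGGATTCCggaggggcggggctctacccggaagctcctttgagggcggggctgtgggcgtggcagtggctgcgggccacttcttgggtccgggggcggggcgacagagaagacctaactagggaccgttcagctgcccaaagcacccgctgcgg
Tnfaip3: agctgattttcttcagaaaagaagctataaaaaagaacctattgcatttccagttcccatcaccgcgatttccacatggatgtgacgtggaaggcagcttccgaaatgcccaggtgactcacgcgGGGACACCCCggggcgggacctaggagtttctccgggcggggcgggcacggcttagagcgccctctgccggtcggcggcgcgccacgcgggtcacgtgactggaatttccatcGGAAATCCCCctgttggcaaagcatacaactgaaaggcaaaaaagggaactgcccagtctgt
They lie at chr19:46304487-46304786 on the plus strand for Nfkb2, at chr11:23770920-23771219 on the minus strand for Rel, at chr12:55492598-55492897 on the minus strand for Nfkbia, at chr17:45555450-45555749 on the plus strand for Nfkbie and at chr10:19015361-19015660 on the minus strand for Tnfaip3.

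The stretch in the Nfkbia window began 29 bases before the start, and that in the Nfkbie window 106 bases before it. The Rel window held 1 stretch, 92 bases upstream. The Tnfaip3 window held 2 stretches, at 125 and 12 bases upstream, while a second annotated window of the gene held no match. The Nfkb2 window shown held 2 stretches, at 39 and 11 bases upstream, and both other Nfkb2 windows held at least 1. In Bcl3, whose level could not be measured, 1 stretch began 2 bases after the start. The windows of Rela (chr19:5637291-5637590, plus strand) and Nfkbib (chr7:28766595-28766894, minus strand) held no match, which says only that these letters are not in these windows. A match describes the sequence and is not evidence of a bound site.

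Values below are background-corrected, quantile-normalized log2 intensities. Per array, 42.9% to 44.7% of probes passed detection, and the arrays of a group correlated at 0.995 to 0.996 over the tested probes. An offset of 16 was added before log2, which compresses the changes of dim probes, and Nfkb2, Rel, Relb, Nfkbib, Nfkbie and Tnfaip3 were dim in DMSO. The labels name no lineage, and 7 of the 9 B-lineage marker genes with a probe were above background, Ms4a1 and Pax5 not. The deposited intensity summed over all 9, Ms4a1 and Pax5 included, moved with the treatments. It was 5811 to 6891 in DMSO, 2409 to 2826 with RVX2135, 2504 to 2949 with VE-821 and 518 to 604 with both drugs. Of the T and NK cell markers, 3 of 8 passed. Summed over all 8, intensities were 45.3 to 49.7 in DMSO, 13.92 to 16.96 with RVX2135, 12.9 to 25.6 with VE-821 and -3.07 to 3.46 with both drugs. None of the 7 myeloid, 2 erythroid and 6 stromal or endothelial markers with a probe passed. In such bulk RNA, fewer cells of a type and less RNA per cell cannot be told apart, and the part of these shifts in the results was not tested.

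Most of the measured set was higher with VE-821. Of the 8 genes, 7 rose against DMSO (limma, Benjamini-Hochberg adjusted p under 0.05 over all tested genes) and Nfkbib was not called, whereas 12.1% of all tested genes rose and 11.7% fell. The median log2 change of the 8 was 2.21, against -0.02 over all genes. Because the genes were chosen with earlier results of these data known, these counts describe the set and are no independent test. Tnfaip3 was above background on 1 of 2 DMSO arrays and on neither RVX2135 array, so it passed the filter only through the groups in which it was high. Among the 7 genes detected on all 8 arrays, 6 rose, with a median of 2.14.

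In all 7 genes that rose with VE-821, every array with VE-821 stood above every array without it. Tnfaip3 rose most (log2 3.05), from a baseline near background. Relb and Nfkb2, the subunits of the alternative pathway, are described first. Relb, which pairs with the p52 product of Nfkb2, measured 5.02 and 5.23 in DMSO, 5.34 and 5.22 with RVX2135, 7.92 and 8.05 with VE-821, and 7.91 and 7.99 with both drugs. Its values thus fell into 2 separate levels, the low one without VE-821 and the high one with it. The rise with VE-821 was 7.26-fold (log2 2.86, SE 0.11, limma adjusted p = 4.38e-08) and ranked 13 from the top of 7947 genes. Nfkb2, whose p100 precursor is both a subunit and an inhibitor, measured 5.14 and 5.05 in DMSO, 5.27 and 5.19 with RVX2135, 7.39 and 7.37 with VE-821, and 7.46 and 7.20 with both. Here too every array with VE-821 stood far above every array without it. Nfkb2 rose 4.88-fold with VE-821 (log2 2.29, SE 0.11, limma adjusted p = 1.90e-07). With both drugs against DMSO, Relb was 7.09-fold higher and Nfkb2 4.71-fold higher.

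Neither gene was called between the combination and VE-821 alone. The log2 difference was -0.03 for Relb (95% confidence interval -0.28 to 0.21, limma adjusted p = 0.818) and -0.05 for Nfkb2 (-0.30 to 0.20, limma adjusted p = 0.735). Differences of these sizes in either direction are therefore not excluded by the arrays. RVX2135 alone gave log2 changes of 0.15 for Relb and 0.14 for Nfkb2, with limma adjusted p of 0.33 and 0.391.

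Rel, the lymphoid subunit c-Rel, followed another course. It measured 5.02 and 4.81 in DMSO, 5.17 and 4.84 with RVX2135, 6.32 and 6.48 with VE-821, and 7.85 and 7.44 with both. DMSO and RVX2135 overlapped, VE-821 was higher than either, and the combination was higher again, with no overlap between these steps. Rel rose 2.80-fold with VE-821 (log2 1.48, SE 0.16, limma adjusted p = 4.94e-05) and 6.65-fold with both drugs (log2 2.73, SE 0.16, limma adjusted p = 6.75e-08). The combination exceeded VE-821 by 2.38-fold (log2 1.25, 95% confidence interval 0.91 to 1.59, limma adjusted p = 5.85e-05).

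Rela, which encodes p65, the activating partner of the classical dimer, was bright in all groups. Its values were 9.18 and 9.20 in DMSO, 9.40 and 9.44 with RVX2135, 9.85 and 10.02 with VE-821, and 10.05 and 10.09 with both drugs. The arrays of the 4 groups did not overlap, but the neighbouring levels did not all differ by the test. Rela rose 1.68-fold with VE-821 (log2 0.75, SE 0.10, limma adjusted p = 0.000331) and 1.85-fold with both, the smallest of the 7 rises in each comparison. The step from DMSO to RVX2135 was 0.23 on the log2 scale (limma adjusted p = 0.112), and that from VE-821 to the combination was 0.14 (95% confidence interval -0.09 to 0.36, limma adjusted p = 0.292). With median scaling these steps were 0.027 and 0.005.

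**Figure D1:**
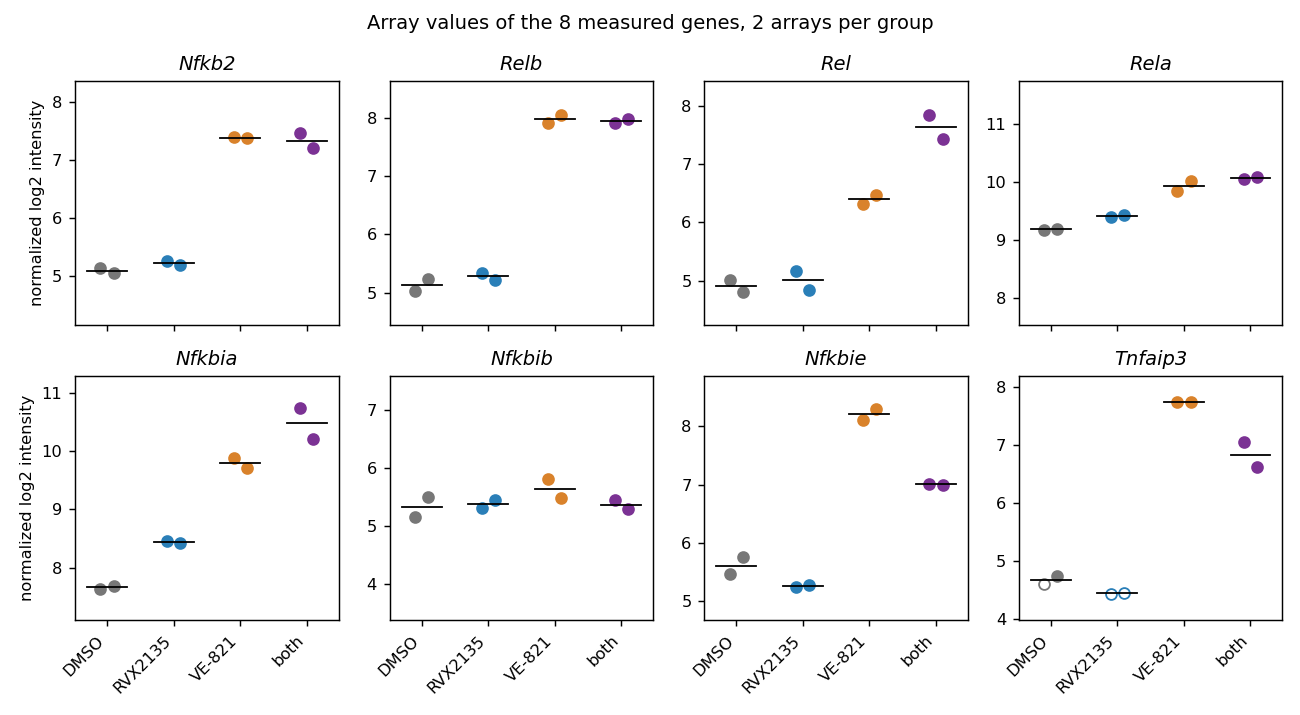
Normalized log2 intensity (vertical axes, each spanning the same range) of the 8 measured genes in the 4 groups, 1 point per array and a line at the group mean of 2 arrays; open points are arrays on which the probe was not above background. Relb and Nfkb2 form 2 levels, Rel and Nfkbia are highest with both drugs, and Nfkbie and Tnfaip3 are highest with VE-821 alone.

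Among the inhibitors, Nfkbia encodes IκBα, the best known NF-κB target that shuts the pathway off. It measured 7.64 and 7.69 in DMSO, 8.46 and 8.42 with RVX2135, 9.88 and 9.71 with VE-821, and 10.75 and 10.21 with both drugs. Each group lay above the one before, without overlap, and Nfkbia was the only one of the 8 genes to rise with RVX2135 alone. That rise was 1.72-fold (log2 0.78, SE 0.15, limma adjusted p = 0.00297). With VE-821 it rose 4.40-fold (log2 2.14, limma adjusted p = 2.20e-06), and with both drugs 7.05-fold (log2 2.82, limma adjusted p = 4.47e-08). The combination exceeded VE-821 by 1.61-fold (log2 0.68, 95% confidence interval 0.35 to 1.02, limma adjusted p = 0.00323). The 2 combination arrays were farther apart than those of any other group, and without the higher one, replicate 1, this difference was 0.41 on the log2 scale and still called.

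Nfkbie, which encodes IκBε, measured 5.46 and 5.76 in DMSO, 5.24 and 5.27 with RVX2135, 8.11 and 8.30 with VE-821, and 7.01 and 7.00 with both drugs. The combination therefore lay between DMSO and VE-821, with no overlap on either side. It rose 6.04-fold with VE-821 (log2 2.59, SE 0.12, limma adjusted p = 1.44e-07) and 2.63-fold with both (log2 1.40, limma adjusted p = 1.91e-06). Against VE-821 alone, the combination was lower by 1.20 on the log2 scale, a 2.29-fold difference (95% confidence interval -1.47 to -0.93, limma adjusted p = 1.20e-05). With RVX2135 alone Nfkbie fell by 0.36 on the log2 scale (limma adjusted p = 0.0456). This last call was lost in 13 of 17 other settings, among them the removal of any array but DMSO replicate 1, with adjusted p between 0.0509 and 0.332. Without DMSO replicate 2 the change was -0.20.

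The second Nfkbie probe was dimmer and not above background in DMSO or with RVX2135. It measured 5.86 and 5.72 with VE-821 and 5.57 and 5.60 with both drugs. It passed the filter only through the groups in which it was high. Fitted over every kept probe, its rises against DMSO had limma adjusted p of 3.61e-06 with VE-821 and 2.33e-06 with both drugs. Those fits used DMSO values below background. The probe was at least 2.19-fold higher with VE-821 than in DMSO, and at least 1.89-fold higher with both drugs. A lower bound of this kind sets the bright group's mean against the lowest detected signal of the dim group's arrays. The probes disagreed on the combination against VE-821: the second one gave a log2 difference of -0.21, which was not called (limma adjusted p = 0.119). With the probes averaged, the difference was -0.70 and called.

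Tnfaip3 removes activating ubiquitin chains from upstream signalling proteins and is itself an NF-κB target. It measured 4.61 and 4.74 in DMSO, 4.44 and 4.45 with RVX2135, 7.73 and 7.73 with VE-821, and 7.04 and 6.62 with both drugs. Its order was the same as that of the brighter Nfkbie probe, highest with VE-821 and next with both drugs. Only 1 of the 2 DMSO arrays measured it above background, so its changes against DMSO rest on a baseline near background. The fitted rise with VE-821 was 8.29-fold (log2 3.05, SE 0.13, limma adjusted p = 8.00e-08). With both drugs it was 4.45-fold higher than in DMSO (log2 2.16, limma adjusted p = 1.21e-07). The combination was lower than VE-821 by 0.90 on the log2 scale, a 1.86-fold difference (95% confidence interval -1.19 to -0.60, limma adjusted p = 0.000202).

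Nfkbib, which encodes IκBβ, the inhibitor that is not a strong target of the pathway, measured 5.16 and 5.49 in DMSO, 5.30 and 5.44 with RVX2135, 5.80 and 5.48 with VE-821, and 5.44 and 5.29 with both. All groups overlapped with DMSO. No comparison called it, and its largest difference from DMSO was 0.32 on the log2 scale with VE-821 (95% confidence interval 0.00 to 0.63, limma adjusted p = 0.135).

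**Figure D2:**
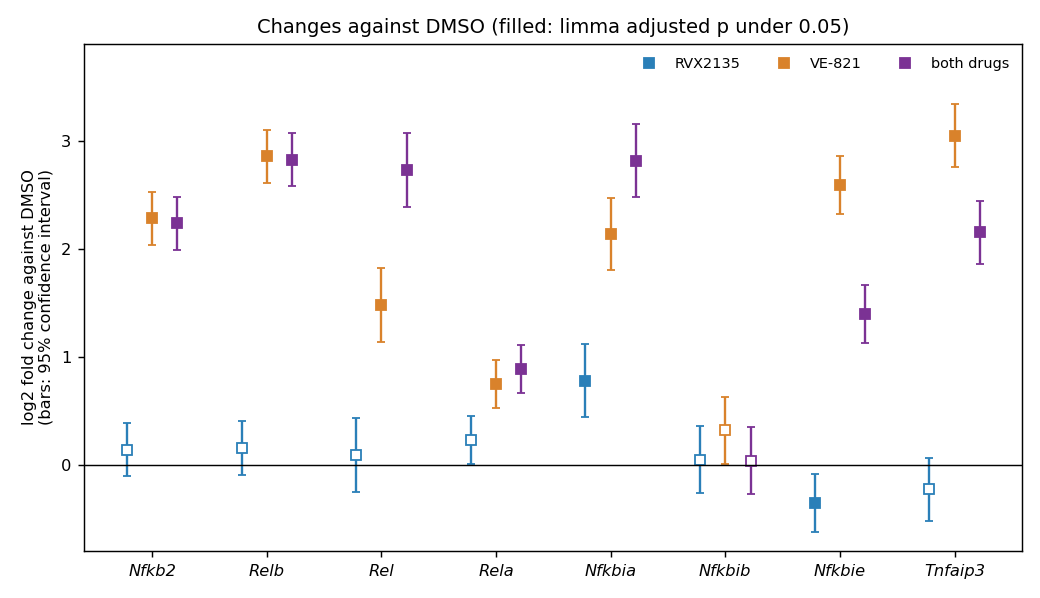
Log2 fold change against DMSO (vertical axis) of the 8 genes with RVX2135, VE-821 and both drugs, with 95% confidence intervals from the limma fit; filled squares passed the adjusted p of 0.05. With VE-821 and with both drugs 7 genes are filled, and with RVX2135 Nfkbia (0.78) and Nfkbie (-0.36) are.

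Seen by comparison, with RVX2135 alone Nfkbia rose and Nfkbie fell, the latter a call lost without any array but DMSO replicate 1. The other 6 did not pass, and the median log2 change was 0.11, while 15% of all genes rose and 15.4% fell around a median of 0. The 2 calls among 8 genes are near that background. Of the 4 measured subunits, limma called 0 with RVX2135, and 1 (Rela) had an unadjusted p under 0.05. Both drugs together raised 7 of 8 genes against DMSO, with a median of 2.20, while 28.9% of all genes rose and 30.8% fell. The 3 comparisons with DMSO share its 2 arrays. Against RVX2135 all but Nfkbib again rose, with VE-821 (median 1.77, against 13.3% of all genes that rose and 13.2% that fell) and with both drugs (median 2.07, against 24.8% and 26.4%). Tnfaip3 was at least 8.14-fold higher with VE-821 than with RVX2135 (fitted change, limma adjusted p = 3.36e-08). It was at least 4.37-fold higher with both drugs than with RVX2135 (fitted change, limma adjusted p = 1.53e-07).

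The combination against VE-821 alone divided the set. Rel and Nfkbia were higher, Nfkbie (by its brighter probe) and Tnfaip3 were lower, and Nfkb2, Relb, Rela and Nfkbib were not called. The median was -0.04, and 24.9% of all genes rose and 25.8% fell in this comparison, so that 4 of 8 called genes are close to the background share. The sizes ran from 1.25 for Rel to -1.20 for Nfkbie on the log2 scale.

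A further test asked whether the drugs together gave the sum of their single log2 effects. The interaction, the log2 effect of both minus that sum, was called for 3 of 8 genes, while 13.1% of all genes had a higher and 15.5% a lower interaction. Rel exceeded the sum: the single effects added to 1.57 and the combination gave 2.73, a difference of 1.16 (SE 0.22, limma adjusted p = 0.00338). Rel was above background but dim in DMSO and with RVX2135, where the offset compresses changes. Nfkbie fell short of the sum, with 2.24 against 1.40 observed, a difference of -0.84 (SE 0.17, limma adjusted p = 0.00478). With its probes averaged that difference was -0.48. The second probe was below background in DMSO and with RVX2135 and gives no test of it. For Tnfaip3 the fitted interaction was -0.67 (SE 0.19, limma adjusted p = 0.0218). Its probe was below background on both RVX2135 arrays and on 1 of 2 DMSO arrays, so neither the size nor the direction of this interaction is measured. The call was lost in 9 of 15 other settings, with adjusted p between 0.052 and 0.0721, among them the removal of any array but DMSO replicate 2 and combination replicate 1. For Nfkbia, the gene that rose with each drug, the sum was 2.92 and the combination 2.82, with an interaction of -0.10 (95% confidence interval -0.57 to 0.38). Relb, Nfkb2, Rela and Nfkbib had interactions between -0.33 and -0.10 that were not called.

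**Figure D3:**
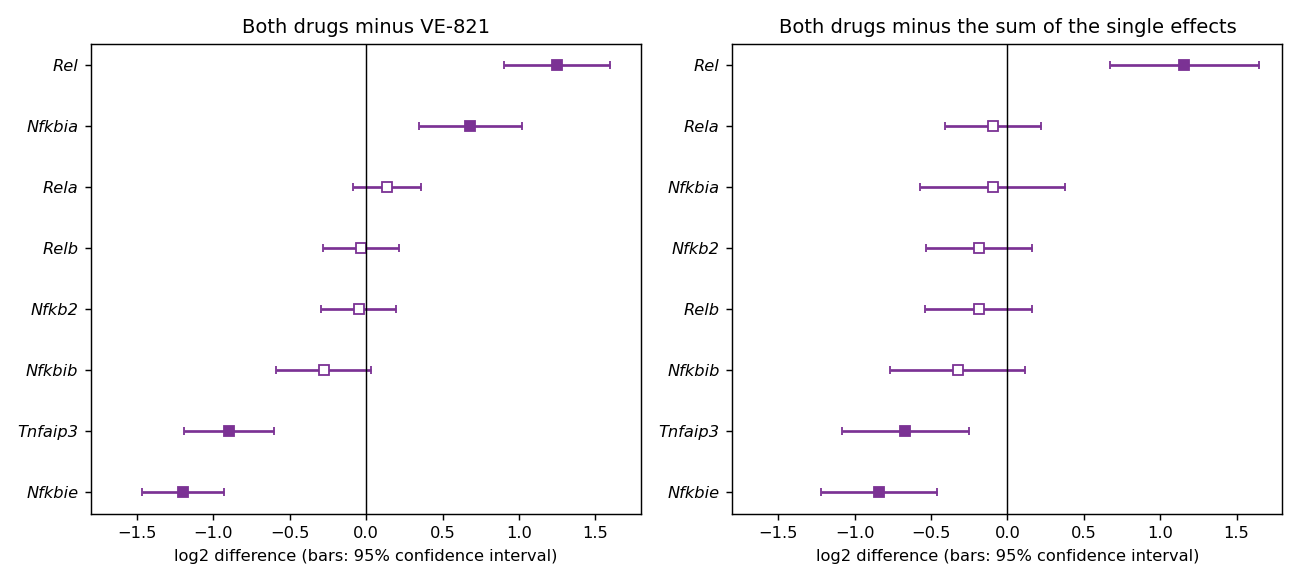
Log2 differences (horizontal axes) with 95% confidence intervals for the 8 genes, for both drugs minus VE-821 on the left and for both drugs minus the sum of the single effects on the right; filled squares passed the adjusted p of 0.05. Rel lies highest in both panels at 1.25 and 1.16, and Nfkbie lowest at -1.20 and -0.84.

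Other genes of the pathway were counted by role, in lists likewise chosen with earlier results of these data known. Of 13 kinases and kinase partners that act above the IκB proteins, 9 were measured. With VE-821 limma called 0 of the 9, where 12.1% of all genes rose and 11.7% fell, and the median log2 change was 0.01. Of the 9, 3 had an unadjusted limma p under 0.05, as had 2815 of all 7947 genes. With both drugs 4 rose and 3 fell, where 28.9% of all genes rose and 30.8% fell. Tab2 and Tab3, which link ubiquitin chains to the kinase Map3k7, rose by 1.02 and 1.15 on the log2 scale with both drugs. Map3k14, the NIK kinase that starts the alternative pathway, had a log2 change of 0.04 with VE-821, but rose by 0.54 with RVX2135 and by 0.91 with both. Ikbkg, the regulatory subunit NEMO of the kinase complex, fell by 0.93 with both drugs (limma adjusted p = 4.72e-05).

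Of 18 adaptors and ubiquitin ligases, 14 were measured. With VE-821 4 rose and 2 fell (12.1% and 11.7% of all genes), and with both drugs 6 rose and 3 fell (28.9% and 30.8% of all genes), with medians of 0.01 and 0.10. The count with both drugs is near the share over all genes. Tank, which binds TRAF proteins, rose by 1.27 with VE-821 and by 1.05 with both on the log2 scale. Bcl10, a link from antigen receptors to NF-κB, rose by 0.75 and 0.98. Btrc, the ligase component that recognizes marked IκB, fell by 0.68 with VE-821, by 0.90 with RVX2135 and by 1.59 with both. Myd88, the adaptor of Toll-like receptors, fell by 0.37 with RVX2135 and by 0.97 with both.

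Of 17 other inhibitors and deubiquitinases, 14 were measured. With VE-821 3 rose and 1 fell, and with both drugs 6 rose and 4 fell, with medians of 0.07 and 0.14. Both counts are near the shares over all genes, 12.1% and 11.7% with VE-821 and 28.9% and 30.8% with both drugs. Tnip1, which binds the Tnfaip3 protein, rose by 1.10 with VE-821 and by 1.36 with both. Rnf11, another partner of that protein, rose by 0.44 and 1.10. Nfkbid, an IκB-type protein of the nucleus, measured 7.44 and 7.56 in DMSO, 7.04 and 6.76 with RVX2135, 8.72 and 8.37 with VE-821, and 7.37 and 7.20 with both drugs. It was thus raised by VE-821 (1.04 on the log2 scale, limma adjusted p = 0.000312), and the combination was lower than VE-821 by 1.26 (limma adjusted p = 2.32e-05), the direction seen for Nfkbie and Tnfaip3. Nfkbiz, of the same protein type, had a log2 change of 0.26 with VE-821, which was not called, and rose by 0.68 with RVX2135 and by 1.05 with both.

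Of 29 other genes known as NF-κB targets, 14 were measured, 9 of them above background on both DMSO arrays. With VE-821 10 of the 14 rose (median 1.18), and with both drugs 10 rose and 1 fell (median 1.22). The share of all genes that rose was 12.1% with VE-821 and 28.9% with both drugs. The genes not detected on both DMSO arrays had to pass through a treated group. Of the 9 that were detected there, 7 rose with VE-821 (median 1.18), and 7 rose and 1 fell with both drugs (median 1.20). Cd40, a receptor of the TNF receptor family that signals to both arms of the pathway, fell by 0.97 on the log2 scale with RVX2135 and rose by 1.82 with VE-821 and by 1.46 with both drugs. The chemokine gene Cxcl1 was above background on 1 of 2 VE-821 arrays and on both combination arrays. It was at least 8.42-fold higher with both drugs than in DMSO (fitted change, limma adjusted p = 2.88e-09). Cxcl2 was above background only with both drugs. There it was at least 4.21-fold higher than in DMSO (fitted change, limma adjusted p = 6.95e-09). It was at least 4.23-fold higher than with VE-821 (fitted change, limma adjusted p = 2.66e-08). Ccl4 was at least 1.70-fold higher with VE-821 and at least 3.58-fold higher with both than in DMSO. These 3 chemokine genes were below background in DMSO and with RVX2135 and passed the filter only through the groups in which they were high, so their order was set in part by the filter. The other chemokine genes measured are named here after their values were seen. Ccl5 rose by 2.14 on the log2 scale with VE-821 and by 1.14 with both drugs against DMSO, and was lower with both than with VE-821 (log2 -1.001, limma adjusted p = 0.000537). Cxcl10 rose by 4.02 with VE-821 and by 3.99 with both, and was not called between them (log2 -0.03, limma adjusted p = 0.923). For both drugs against VE-821, 4 of the 14 target genes were higher and 5 lower, against 24.9% and 25.8% of all genes.

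**Figure D4:**
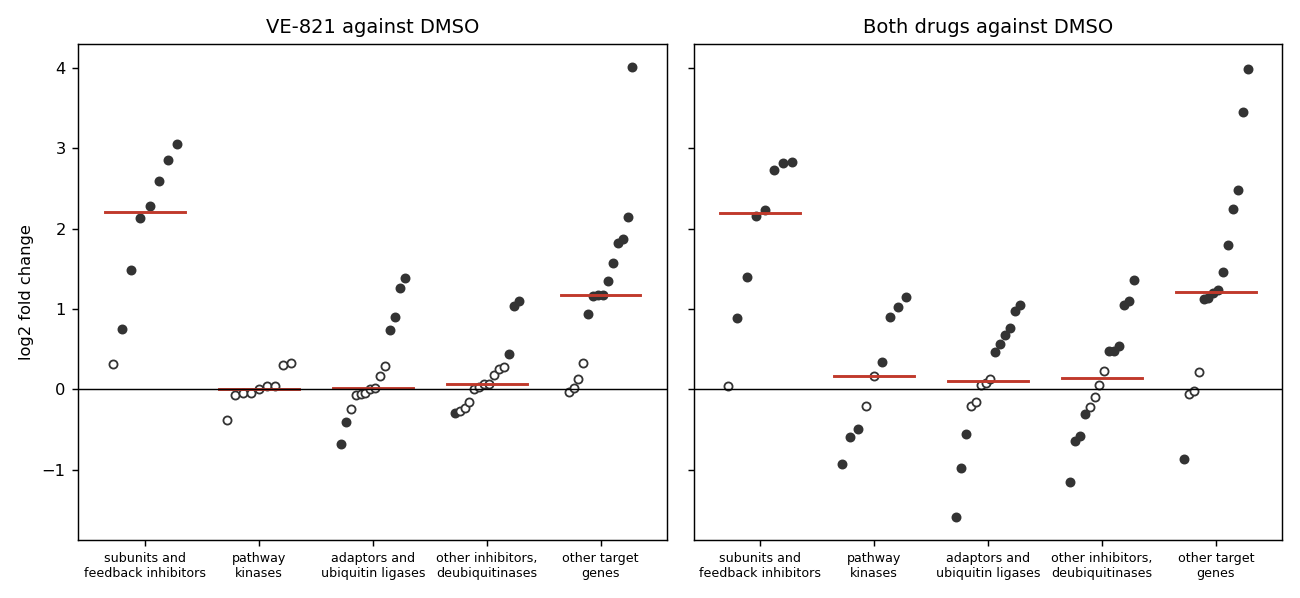
Fitted log2 fold change against DMSO (vertical axis) of each measured gene by list, with VE-821 on the left and with both drugs on the right; filled points passed the adjusted p of 0.05 and red lines are list medians. The subunits and feedback inhibitors have medians of 2.21 and 2.20 and the other target genes 1.18 and 1.22, while the remaining lists have medians between 0.01 and 0.17.

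The promoter motif was counted for the same lists. It was found in the windows of 10 of 23 other target genes, 5 of 11 other inhibitors, 3 of 13 adaptors and ligases and 1 of 11 kinases with a window. The share over all genes with a window was 5.14%. The lists are small, and whether their shares differ from it was not tested.

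Genes whose levels ran most like those of the set were taken by Pearson correlation over the 8 arrays, among the 1512 tested genes outside the set whose group means spanned at least 1 on the log2 scale. These values describe the arrays, which share groups and normalization. Closest to Nfkb2 were H2-Q8, a class I histocompatibility gene (r = 0.999), and Atf5, a stress-response transcription factor (r = 0.994). Closest to Relb were Atf5 (r = 0.994) and B2m, the light chain of class I molecules (r = 0.993). For Rel they were Nepro (r = 0.992) and Hmox1, heme oxygenase 1 (r = 0.989), and for Nfkbia the pseudokinase gene Trib3 (r = 0.998) and the phosphatase gene Dusp8 (r = 0.997). Nfkbie ran with Glipr2 (r = 0.995) and the lymphocyte activation marker Cd69 (r = 0.994), and Tnfaip3 with the peptide hormone gene Adm (r = 0.994) and Pmaip1, which encodes the death protein Noxa (r = 0.994). B2m, for example, rose 1.06 with VE-821 and 1.05 with both drugs on the log2 scale, and Cd69 2.99 and 1.62.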

How the data were processed

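Total RNA of 8 samples, 2 for each of 4 groups, was hybridised to 1-colour Illumina bead arrays. The authors deposited non-normalized, background-subtracted intensity values and a detection p-value for 25697 probes, and a second table of intensities they had normalized with an unnamed method (not given in the sources used here). Per the submitters' processing notes, GenomeStudio was used.

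In limma 3.58.1 (R 4.3.3), the intensities were background-corrected with neqc, using the detection p-values, given an offset of 16 on the linear scale, quantile-normalized and put on the log2 scale. The 11761 probes with a detection p under 0.05 on both arrays of some group were kept. The brightest probe stood for each of 7947 genes. Probes were named through the platform annotation and current RefSeq symbols. lmFit and eBayes fitted 1 mean per group over all 8 arrays (4 residual degrees of freedom), and 7 comparisons were adjusted by Benjamini-Hochberg within each. The median standard error of a log2 difference was 0.117, limited by the number of arrays. The fit was also run on simulated log2 values with changes in the VE-821 group only. That simulation modelled neither background nor the offset, so it did not assess dim probes or the interaction. Named are the 10 genes, up to 4 of each other list with the smallest adjusted p, and for each gene spanning at least 1 on the log2 scale the 2 genes of most like pattern. The members and lists were chosen with earlier results of these data known. Alternatives were another source of values, scaling, filter, probe choice, sample set, a replicate block and leaving out each array. None of them used a much smaller offset.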

Additional observations from a re-analysis of the deposited data

Results flagged for a closer look

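For 3 of the 8 genes the log2 effect of VE-821 differed between cells with and without RVX2135, by the limma interaction test, which called 13.1% of all genes higher and 15.5% lower. The count among the 8 is near that background. For Rel, whose probe was dim in DMSO and with RVX2135, it was larger with RVX2135 present, by 1.16 (adjusted p = 0.00338). For Nfkbie it was smaller, with a difference of -0.84 (adjusted p = 0.00478), by the brighter of its 2 probes. The dimmer one was below background in DMSO and with RVX2135 and cannot test it. For Tnfaip3 the fitted difference was -0.67 (adjusted p = 0.0218), a call lost in 9 of 15 other settings. Its probe was below background on both RVX2135 arrays and 1 DMSO array, so neither the size nor the direction of this difference is measured. Groups of 2 arrays are too small to test for outlying samples.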

How the results depend on the processing

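The rises of the 7 called genes with VE-821 and with both drugs, against DMSO and against RVX2135, stayed called in every alternative that gave a value. Tnfaip3 has none with detection required on all arrays. The differences of Rel, Nfkbia, Nfkbie and Tnfaip3 between the combination and VE-821, and the interactions of Rel and Nfkbie, also stayed called. No alternative used the dimmer Nfkbie probe alone, by which the difference between the combination and VE-821 was -0.21 and not called. The number of genes called with RVX2135 was 2, but 1 with the authors' normalized values, with quantile normalization without background correction, without a detection filter, with every kept probe, with the mean over probes and with only the groups compared, and 1 to 2 when 1 array was left out. Every value that changed sign was uncalled. With median scaling Nfkbib was at -0.052 with RVX2135 and -0.109 with both drugs against DMSO. With 1 array left out, Nfkbib ran from -0.119 to 0.213 with RVX2135, from -0.127 to 0.204 with both drugs, and from -0.082 to 0.065 for both against RVX2135. Rel ran from -0.074 to 0.259 with RVX2135, Relb from -0.098 to 0.029 and Nfkb2 from -0.176 to 0.078 for both drugs against VE-821, and the Nfkbia interaction from -0.37 to 0.17. Nfkbib was called for both drugs against VE-821 with median scaling (-0.44) and without VE-821 replicate 2 (-0.44). The cause of these changes was not tested.

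Median scaling took the median of all genes to -0.12 with RVX2135, -0.20 with both drugs and -0.13 for both against VE-821. It cut the share of calls that were higher to 25.6% from 49.4% with RVX2135, 37.4% from 50.9% with VE-821, 30.1% from 48.4% with both drugs, 37.7% from 48.5% for both against RVX2135 and 30.9% from 49.2% for both against VE-821, and raised it to 63.1% from 50.1% for VE-821 against RVX2135. Calls over all genes fell by more than 1.5 times in some comparisons without either DMSO array, RVX2135 replicate 2 or either VE-821 array, the most without VE-821 replicate 2, to 519 higher and 427 lower with VE-821 from 963 and 928. Among the counts of the other lists, 417 of 472 stayed within 1.5 times, 50 were smaller and 5 larger, and kinases called with VE-821 reached 2. Deviations between replicates correlated weakly across groups (between -0.03 and 0.18), which cannot exclude a batch shared by replicate number. The sample descriptions give the first replicates of all groups the letter A and the second ones the letter B, without saying what the letters mean. With a replicate block 7 genes were again called with VE-821 and no call of the 8 genes changed. Probes near background have little measurable change.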
